A study of Rattus norvegicus with 9 samples.

Results

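Wt1, Tcf21, Tbx18, Aldh1a2, Msln, Upk3b, Krt8, Krt18 and Krt19 are genes by which the epicardium, the mesothelial sheet over the heart, is recognized. These 9 genes were taken by name from the 35843 genes of the expression table, where each name stood on 1 row, so 9 rows were described. RNA-seq was performed on the left ventricle of adult male Sprague-Dawley rats, 3 rats per group, at day 28. In group MI the left anterior descending coronary artery had been tied permanently, and the rats were given saline by gavage for the 28 days. In group MI + DAPA (1st d), shortened to DAPA in the comparisons, the same ligation was followed by daily gavage of dapagliflozin (DAPA), an inhibitor of the sodium-glucose cotransporter SGLT2, at 1 mg/kg from the first day. Rats of group Sham had the operation without tying of the artery, and received saline as well. The study describes the sequenced tissue as left ventricle and, in the ligated groups, as infarcted myocardium, whereas its general methods say that molecular work mainly used the infarct border, with the scar cut away, or the matching place in group Sham. Which of these the libraries held, and how much of the outer surface of the heart, is not recorded. Each sample's title carried a pair of labels whose meaning is not given, and whether a library pooled several pieces was not known. All labels give the tissue as heart and the genotype as SD rat.

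The epicardium is a single layer of mesothelial cells. In the embryo its cells express the transcription factors Wt1, Tcf21 and Tbx18, leave the surface by epithelial-mesenchymal transition, and give rise to cardiac fibroblasts and to the mural cells of the coronary vessels. In the adult the layer is quiet and is known to switch such genes on again after injury, with Aldh1a2 making retinoic acid. The 3 transcription factors also have expression outside the layer: Wt1 in endothelial cells, Tcf21 in fibroblasts, and Tbx18 in pericytes and smooth muscle. Msln, Upk3b and the keratins of simple epithelia are closer to the surface cells themselves.

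Promoter sequence from RefSeq (build GRCr8) was found for 7 of the 9 genes. Those of Tcf21, Aldh1a2 and Upk3b are shown, each as the 250 bases before the start of transcription, 5′ to 3′ on the strand of the gene, because these genes followed 3 different patterns: kept high after infarction with or without DAPA, highest in group MI, and seen almost wholly in 2 rats of group MI. Capitals mark a match to 1 of 6 short motifs. Tcf21 lies on the plus strand of chr1:24520249-24520498, Aldh1a2 on the plus strand of chr8:80758391-80758640, and Upk3b on the minus strand of chr12:26274241-26274490.
Tcf21: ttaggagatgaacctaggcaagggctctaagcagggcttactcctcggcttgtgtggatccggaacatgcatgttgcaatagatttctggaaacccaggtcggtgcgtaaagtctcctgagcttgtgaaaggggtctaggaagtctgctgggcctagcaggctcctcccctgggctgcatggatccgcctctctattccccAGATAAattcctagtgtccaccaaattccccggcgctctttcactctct
Aldh1a2: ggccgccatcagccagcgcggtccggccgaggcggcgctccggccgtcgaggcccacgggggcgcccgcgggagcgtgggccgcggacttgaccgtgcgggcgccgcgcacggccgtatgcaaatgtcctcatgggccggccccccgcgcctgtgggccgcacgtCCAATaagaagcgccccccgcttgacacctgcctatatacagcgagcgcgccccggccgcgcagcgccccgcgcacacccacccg
Upk3b: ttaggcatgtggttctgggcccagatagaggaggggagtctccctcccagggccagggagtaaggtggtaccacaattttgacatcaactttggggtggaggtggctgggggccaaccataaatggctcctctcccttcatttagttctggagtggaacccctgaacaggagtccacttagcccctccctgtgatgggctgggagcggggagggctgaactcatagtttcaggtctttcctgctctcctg
The motifs searched on both strands were the TATA box TATAAA, the GC box GGGCGG, the GATA motif AGATAA, the AP-1 motif TGANTCA, the TEAD motif GGAATG and the CCAAT box CCAAT. Tcf21 held AGATAA at -49 to -44, a match found in 10.3% of 33469 rat promoter windows of this length. Aldh1a2 held CCAAT at -85 to -81, as 34.02% of all windows did, in a window with 77.2% G and C against a median of 51.2%. In Upk3b none of the 6 motifs was matched. These are matches of letters, and binding was not measured.

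The authors deposited FPKM values, in which the reads of a gene are divided by its length and by a measure of library size, so levels can be set side by side between genes. Differences were taken on log2(FPKM + 1) and tested with limma over every gene that reached an FPKM of 1 in 3 or more of the 6 rats. A gene was called where the unadjusted limma p was below 0.05 and the log2 fold change was beyond 1 in either direction, and the adjusted p printed beside it is Benjamini-Hochberg adjusted over all genes tested. The scale understates the change of genes near 0. Read numbers recovered from the FPKM steps were 13597239 to 17210909 per rat. Outside the mitochondrial genome there were 5702454 to 6570698 in group Sham, 12635945 to 13171891 in group MI and 11440726 to 12082280 in group DAPA. The library size that the FPKM values imply did not follow all recovered reads. Per recovered read, relative to Sham rat 1, it was 0.970 and 0.826 in Sham rats 2 and 3. It was 1.93 to 2.10 in the MI rats and 1.54 to 2.00 in the DAPA rats. The cardiomyocyte markers were abundant in all 9 libraries, with 9 of them summing to between 2029 and 16157 FPKM. MI rat 2 stood apart, with the lowest cardiomyocyte sum and the highest leukocyte sum, 5006 FPKM against 1216 and 1753 in the other MI rats.

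The 9 genes did not behave as 1 group, and their levels did not all follow the name epicardial. In group Sham the order of mean FPKM was Wt1, Tcf21, Tbx18, Aldh1a2, Msln, Krt8, Krt18, Krt19 and Upk3b. Wt1 stood alone at 35.9 ± 3.03 (SD, n = 3), above every Sham value of the other genes. Tcf21 at 7.08 ± 2.89 and Tbx18 overlapped, and Aldh1a2 overlapped Tbx18 but not Tcf21. Msln overlapped Aldh1a2 and the 4 genes below it, and Krt8 lay above Krt18, Krt19 and Upk3b, which were all near 0. In group MI the order was Tcf21, Msln, Aldh1a2, Wt1, Tbx18, Krt8, Upk3b, Krt18 and Krt19, and Msln overlapped every gene except Krt18 and Krt19 because its 3 rats were so far apart. In group DAPA Tcf21 was again highest and Wt1 second, while Msln lay below Krt18. There the neighbours Aldh1a2 and Tbx18, Krt8 and Krt18, Krt18 and Msln, and Krt19 and Upk3b overlapped, and the others did not. Among the 3 transcription factors 1 was called lower, 1 higher and 1 was not called after infarction, whereas the 6 others had higher means in group MI than in group Sham.

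**Figure D1:**
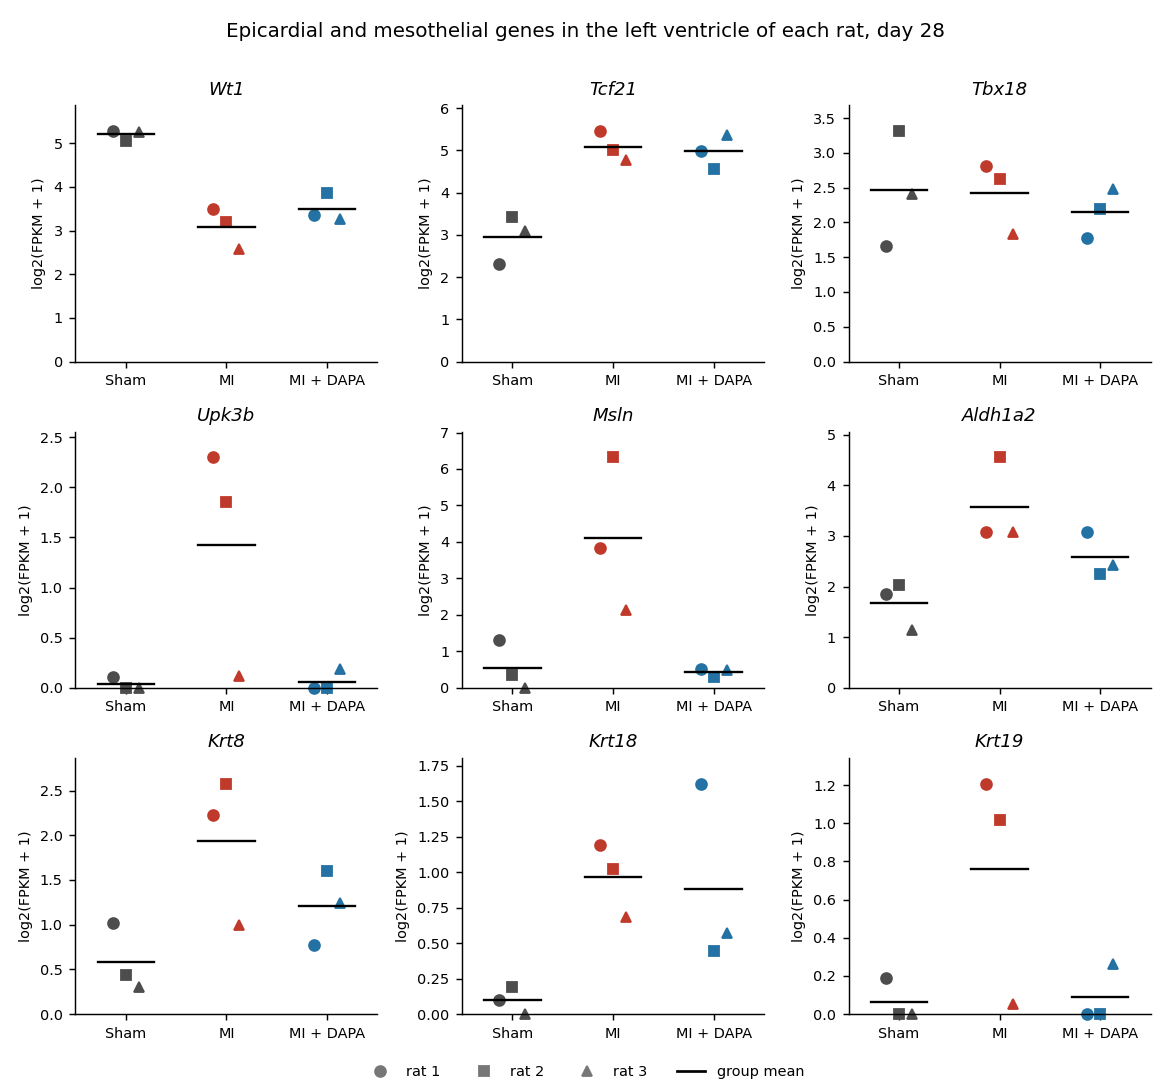
Expression of the 9 genes in each rat as log2(FPKM + 1), 1 panel per gene with its own vertical axis starting at 0. Symbols are single rats and black lines group means. Wt1 is high in all Sham rats and low in the 6 others, Tcf21 is the reverse, and Upk3b and Krt19 are raised only in MI rats 1 and 2.

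After infarction 4 of the genes were higher and 1 was lower. In MI vs. Sham, Tcf21, Msln, Aldh1a2 and Krt8 were higher, Wt1 was lower, and Tbx18 was not called. Upk3b, Krt18 and Krt19 were too low to be tested. So 4 of the 6 genes tested were called higher, where 12.1% of all 13485 genes tested were, and 1 of 6 lower, where 10.3% were. All 3 MI rats lay outside the range of the 3 Sham rats for 6 of the 9 genes, 5 above and 1 below, and for 4 of the 6 tested, beside 54.6% of all genes tested. Upk3b was among the 5 by a narrow margin, at 0.0878 FPKM (2 reads) in MI rat 3 against 0.0804 (1 read) in Sham rat 1. Genes that passed the filter through group MI alone, such as Msln, could hardly have been tested without differing.

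Between the infarcted groups Msln alone was called, on its unadjusted p (limma adjusted p = 0.558), and no transcription factor was called. In DAPA vs. MI, 1 of 7 genes tested was called lower, Msln, and 0 were called higher. Msln passed the filter there through group MI alone, so it could hardly have been tested without lying lower with DAPA. Over all 13251 genes 1.11% were lower and 0.951% higher. Of the 13251 genes 0 passed an adjusted limma p of 0.05 in this comparison, and 1125 had an unadjusted limma p under 0.05 without regard to fold. The groups did not overlap for 2 of the 9 genes, Msln and Aldh1a2, both lower with DAPA, where 13.8% of all genes tested did not overlap. In DAPA vs. Sham, 1 of 5 genes tested was higher (Tcf21) and 1 lower (Wt1), beside 9.54% higher and 8.16% lower among 13359 genes. There the groups did not overlap for 4 of the 9 genes, 3 of them among the 5 tested, beside 46.5% of all genes tested. The 3 comparisons share their groups, so they do not bear on each other independently. Markers of other cells differed in DAPA vs. MI as well. Of 9 cardiomyocyte genes tested 2 were called higher, Tnni3 (1.56) and Myl2 (1.59), which were at 0.95 and 0.96 and not called without MI rat 2, and the summed level was 2029 to 9831 FPKM in group MI and 7663 to 16157 in group DAPA. Adipocyte markers summed to 3940 to 5594 FPKM in Sham rats, 392 to 760 in MI rats and 615 to 1109 in DAPA rats. Their mean log2(FPKM + 1) was 2.30 to 2.47, 2.23 to 2.35 and 2.47 to 3.26 in these groups. In MI vs. Sham 2 were tested, and Fabp4 was lower (-3.57) whereas Cfd was higher (2.07). In DAPA vs. MI 1 of 3 tested, Retn, was called higher (1.47), and Fabp4 (0.99) and Cfd (-1.28) were not called. The part of these cells in the levels of the 9 genes was not tested. Each gene was also compared by the two-sided exact permutation test, whose smallest p with 3 rats against 3 is 0.1. Every pair of groups without overlap had that p, and after Benjamini-Hochberg adjustment over the 27 exact permutation tests it became 0.225.

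**Figure D2:**
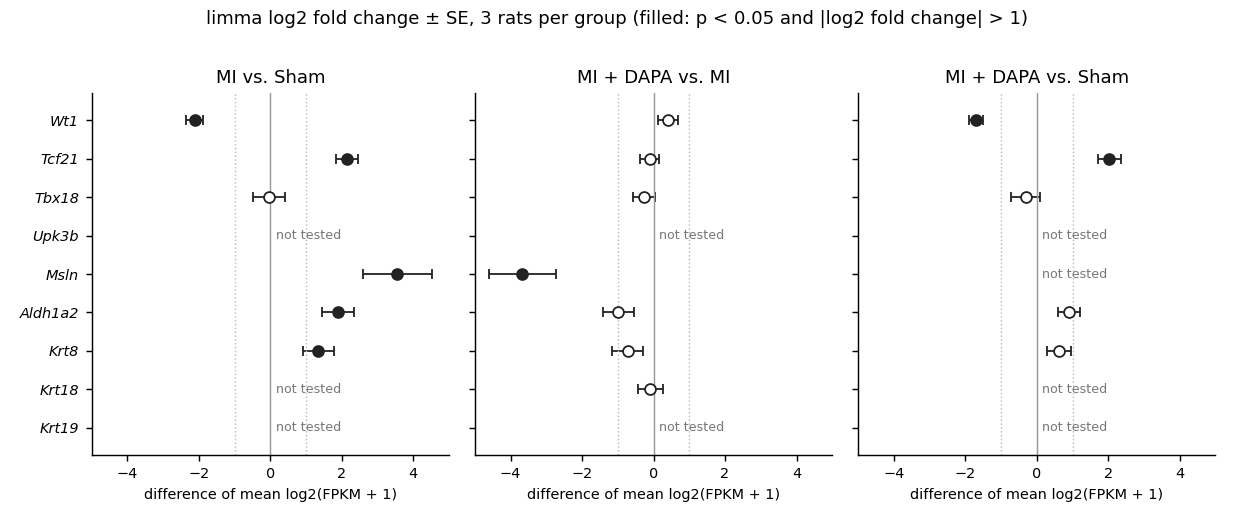
Log2 fold change of each gene by limma with its standard error (bars) in the 3 comparisons, 3 rats per group, on the difference of mean log2(FPKM + 1). Filled points were called, open points were not, and genes under the filter are marked as not tested. Wt1 lies at -2.12 and Tcf21 at 2.14 in MI vs. Sham, and Msln at -3.67 is the 1 filled point in DAPA vs. MI.

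Wt1, a zinc-finger transcription factor that keeps epicardial cells able to enter epithelial-mesenchymal transition, was lower in every infarcted rat. Its FPKM was 37.9, 32.4 and 37.5 in the Sham rats, 10.3, 8.12 and 4.96 in the MI rats, and 9.23, 13.5 and 8.61 with DAPA. The 3 Sham rats lay well above the other 6, and the infarcted groups overlapped. In MI vs. Sham the log2 fold change was -2.12 (SE 0.24, limma adjusted p = 0.00150), a mean level 4.61-fold lower. Against Sham the DAPA rats were at -1.71 (SE 0.20, limma adjusted p = 0.00219), and against MI at 0.41 (SE 0.28, limma adjusted p = 0.619). In whole heart tissue fewer cells of a type and less RNA per cell cannot be told apart. The Sham libraries had the most mitochondrial reads, 61.1% to 66.9% against 7.07% to 19.1% in group MI and 17.5% to 32.0% with DAPA. When each rat was scaled to all of its recovered reads, a setting added after the values were seen that moved the median of all genes by 0.93 in MI vs. Sham, 0.74 in DAPA vs. Sham and -0.19 in DAPA vs. MI, Wt1 was still called lower in MI vs. Sham at -1.07, whereas the call in DAPA vs. Sham was lost at -0.87.

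Endothelial markers fell beside Wt1. Of 7 endothelial genes tested, 5 were lower in MI vs. Sham and 0 higher, and their summed level went from 974 to 1176 FPKM in group Sham to 279 to 366 in group MI and 379 to 421 under DAPA. Egfl7, secreted by endothelium, had a log2 fold change of -2.55 (SE 0.20, limma adjusted p = 0.000953), with Emcn at -1.74, Cdh5, the endothelial cadherin, at -1.42 and the receptor Tie1 at -1.14. With all recovered reads as the scale 1 of the 7 was still called lower. Within each library, Wt1 minus the mean log2 level of these 7 genes was -1.51 ± 0.20 (SD, n = 3) in group Sham, -2.22 ± 0.64 in group MI and -2.16 ± 0.42 under DAPA, a quantity in which library scaling largely cancels. The MI rats did not overlap the Sham rats in it, with a difference of -0.70. The two-sided exact permutation p was 0.1, or 0.257 after Benjamini-Hochberg adjustment over 18 such within-library tests. Between the infarcted groups the difference was 0.06 (exact permutation p = 0.9). The comparison with endothelial markers was added after the values were seen, and the part of endothelial cells in the level of Wt1 was not tested.

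Tcf21, the basic helix-loop-helix factor that epicardial cells need to become fibroblasts and that resident fibroblasts keep, was higher in every infarcted rat. Its FPKM was 3.99, 9.72 and 7.53 in group Sham, 43.0, 31.3 and 26.5 in group MI, and 30.8, 22.7 and 40.4 with DAPA. No infarcted rat fell within the Sham range, and the 2 infarcted groups overlapped widely. The log2 fold change was 2.14 (SE 0.31, limma adjusted p = 0.00296) in MI vs. Sham and 2.03 (SE 0.32, limma adjusted p = 0.00505) in DAPA vs. Sham. With DAPA against MI it was -0.11 (SE 0.26, limma adjusted p = 0.889).

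Fibroblast markers were higher too: 12 of 13 in MI vs. Sham, with 0 lower. Pdgfra, a receptor of cardiac fibroblasts, had a log2 fold change of 2.81, Col3a1 4.53, Col1a1 5.44 and Pi16 4.10. The summed level of the 13 was 554 to 912 FPKM in group Sham, 4421 to 8566 in group MI and 2925 to 5123 under DAPA. Tcf21 minus the mean log2 level of the 13 was -1.21 ± 1.07 (SD, n = 3) in group Sham and -2.11 ± 0.36 in group MI, which overlapped (exact permutation p = 0.3), and -1.68 ± 0.32 with DAPA. Only Col1a1 of these markers was called in DAPA vs. MI, at -1.15 (limma adjusted p = 0.558), and at -0.89 it was not called without MI rat 2. How far fibroblast content set the level of Tcf21 was not tested.

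Tbx18, a T-box factor of the epicardium and of vascular mural cells, showed no difference beyond the spread of the rats. It was at 2.16, 8.93 and 4.31 FPKM in group Sham, 6.004, 5.15 and 2.58 in group MI and 2.43, 3.56 and 4.60 with DAPA, so Sham rats were both lowest and highest of the 9. The log2 fold changes were -0.04 (SE 0.44) in MI vs. Sham, -0.27 (SE 0.30) in DAPA vs. MI and -0.31 (SE 0.41) in DAPA vs. Sham, with limma p-values, adjusted over all genes, of 0.955, 0.745 and 0.605. The sign in MI vs. Sham turned to 0.39 without Sham rat 2 and to 0.25 without MI rat 3, and scaling to all recovered reads made it 0.84. Of 11 pericyte and smooth muscle genes tested in MI vs. Sham, Rgs5 (2.17) and Pdgfrb (1.02) were higher, Higd1b (-1.29) was lower, and the other 8, among them the pericyte genes Kcnj8 (-0.59) and Notch3 (0.94), were not called. Higd1b was named after its value was seen. Scaled to all recovered reads, 4 of the 11 were higher and 0 lower.

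Msln, which encodes the mesothelial surface glycoprotein mesothelin, had the largest differences in MI vs. Sham and DAPA vs. MI and the widest spread of the 9 genes on the log2(FPKM + 1) scale. Its FPKM was 1.49, 0.268 and 0 in group Sham, 13.3, 78.8 and 3.42 in group MI, and 0.416, 0.228 and 0.405 with DAPA, from 34, 6 and 0 reads, 562, 3037 and 143 reads, and 15, 8 and 16 reads. All MI rats were above all rats of both other groups, and they differed 23.1-fold among themselves. The log2 fold change was 3.55 (SE 0.96, limma adjusted p = 0.0255) in MI vs. Sham and -3.67 (SE 0.94, limma adjusted p = 0.558) in DAPA vs. MI, where the call rests on the unadjusted p.

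MI rat 2 held most of the Msln reads of its group. Without it the log2 fold change in MI vs. Sham was 2.44 and still called. In DAPA vs. MI the gene failed the filter once any MI rat was left out. The same fit without the filter gave -2.56 without MI rat 2, -3.80 without MI rat 1 and -4.65 without MI rat 3. Each was a call by the unadjusted p, with limma adjusted p-values of 0.927, 0.758 and 0.549 in that order. Summed over rats and scaled to depth, here the library size that the FPKM values imply, the reads of group MI were 49.2-fold those of group Sham (exact 95% interval 36.1 to 69.0) and 86.6-fold those with DAPA (63.2 to 122), intervals that cover counting error alone and not the spread of the rats. Without MI rat 2 these ratios were 13.5 (9.83 to 19.1) and 23.8 (17.2 to 33.7). With all recovered reads as depth, and all rats, they were 106 and 101.

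Upk3b, a membrane protein of the uroplakin family found in mesothelium, was seen almost only in MI rats 1 and 2. Its FPKM was 3.92, 2.62 and 0.0878 in the MI rats, from 90, 55 and 2 reads. In group Sham 1 read was found in the first rat, and 0 in the others. With DAPA the third rat had 3 reads and the others 0. Where 0 reads were counted, the expected number could still have been up to 3 (95% limit). Upk3b did not pass the filter in any comparison. Summed over rats and scaled to depth, 147 reads in group MI against 1 in group Sham gave a ratio of 77.3 (exact 95% interval 13.7 to 3075), and 147 against 3 with DAPA gave 44.2 (14.8 to 217), for counting error alone. With all recovered reads as depth the ratios were 167 and 51.6. MI rat 3 lay inside the range of the DAPA rats, so the groups overlapped (exact permutation p = 0.2 for DAPA vs. MI). In limma without the filter Upk3b was called higher in MI vs. Sham at 1.39 (adjusted p = 0.138) and lower with DAPA at -1.36 (adjusted p = 0.675), neither past an adjusted p of 0.05.

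Aldh1a2, the retinaldehyde dehydrogenase that makes retinoic acid in the epicardium, was higher after infarction and lay lower with DAPA in every rat, without passing the test there. Its FPKM was 2.62, 3.06 and 1.21 in group Sham, 7.43, 22.4 and 7.47 in group MI and 7.38, 3.75 and 4.36 with DAPA. The 3 groups formed 3 separate ranges, although the highest DAPA rat (7.38) and the lowest MI rat (7.43) almost met. The log2 fold change was 1.89 (SE 0.44, limma adjusted p = 0.0150) in MI vs. Sham, and without MI rat 2 it was 1.40 and still called. With DAPA against MI it was -0.99 (SE 0.44, limma adjusted p = 0.558), and -0.50 without MI rat 2. It was past both thresholds without MI rat 1 (-1.24), MI rat 3 (-1.23) or DAPA rat 1 (-1.23), at -1.04 when values were rescaled without the mitochondrial genome and at -1.21 when scaled to all recovered reads. Against Sham the DAPA rats were at 0.91 (SE 0.31, limma adjusted p = 0.0667), under the fold threshold. There Aldh1a2 was called with a pseudocount of 0.1 (1.17), without Sham rat 2 (1.08) or DAPA rat 2 (1.07), and when scaled to all recovered reads (1.49).

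Leukocyte markers differed between the same rats. All 5 leukocyte genes tested were higher in MI vs. Sham, and the summed level of 6 was 69.8 to 307 FPKM in group Sham, 1216 to 5006 in group MI and 682 to 1113 under DAPA. Cd3e of T cells (-1.85) and Jchain of plasma cells (-5.38) were called lower in DAPA vs. MI, both with a limma adjusted p of 0.558. Without MI rat 2 they were at -1.05 and -3.82 and still called, both with a limma adjusted p of 0.982. Cd3e was not called without MI rat 3 (-1.97). Aldh1a2 minus the mean of the 6 was -0.71 ± 0.24 (SD, n = 3) in group Sham, -1.81 ± 0.67 in group MI and -1.12 ± 0.51 under DAPA. Relative to these markers Aldh1a2 was thus lower in every MI rat than in the Sham rats, a mean difference of -1.10 on the log2 scale. The two-sided exact permutation p was 0.1, or 0.257 after Benjamini-Hochberg adjustment over the 18 within-library tests. The infarcted groups overlapped (exact permutation p = 0.3). The part of leukocytes in the Aldh1a2 level was not tested.

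The other genes of retinoic acid metabolism did not move in 1 direction. Of 16 listed, 13 were tested in MI vs. Sham, with 2 higher, 2 lower and a median log2 fold change of -0.13, beside a median of -0.01 over all genes. Aldh1a3, a second retinaldehyde dehydrogenase, rose with a log2 fold change of 2.20 (SE 0.34, limma adjusted p = 0.00372), and its 6.20 to 17.2 FPKM with DAPA overlapped the 8.62 to 22.9 of group MI. Cyp26b1, which breaks retinoic acid down, was lower (-1.34, limma adjusted p = 0.0431), and so was the receptor Rxrg (-1.18, chosen after its value was seen). The receptors Rarb (-0.86) and Rxra (0.86) stayed within the fold threshold. With DAPA against MI 0 of 13 were called, and Rdh10 alone had an unadjusted limma p under 0.05. Scaled to all recovered reads, 6 of the 13 were higher and 0 lower in MI vs. Sham.

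Krt8, Krt18 and Krt19, the keratins of simple epithelia, were low throughout. Krt8 pairs with the other 2 in filaments. The FPKM of Krt8 was 1.03, 0.350 and 0.233 in group Sham, 3.69, 4.97 and 0.990 in group MI and 0.715, 2.04 and 1.36 with DAPA. MI rats 1 and 2 were the highest of the 9, and MI rat 3 lay just inside the Sham range. Its log2 fold change in MI vs. Sham was 1.35 (SE 0.43, limma adjusted p = 0.0449). The call was lost without Sham rat 2 (1.27) or Sham rat 3 (1.21), and in the fit without the filter when MI rat 1 (1.20) or MI rat 2 (1.03) was left out. Between the infarcted groups it was -0.73 (SE 0.44, limma adjusted p = 0.598) with all rats, and -1.20 and called without MI rat 3 (limma adjusted p = 0.374).

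Krt18 had 1, 2 and 0 reads in the Sham rats, 34, 25 and 16 in the MI rats and 47, 8 and 12 with DAPA. Every infarcted rat was above every Sham rat, and DAPA rat 1 was highest of all at 2.08 FPKM. Per depth, group MI had 13.2 times the reads of group Sham (exact 95% interval 4.33 to 65.2, counting error alone, and 28.3 times with all recovered reads as depth). The DAPA group had 0.990 times those of group MI (0.702 to 1.40, counting error alone). Of its 67 reads 47 came from DAPA rat 1, and DAPA rats 2 and 3, at 0.364 and 0.485 FPKM, lay below every MI rat (lowest 0.610). Krt18 was tested in DAPA vs. MI alone, where the log2 fold change was -0.09 (SE 0.36, limma adjusted p = 0.936).

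Krt19 followed Upk3b, not Krt18. It had 35, 25 and 1 reads in the MI rats, 2, 0 and 0 in the Sham rats and 0, 0 and 5 with DAPA, so MI rats 1 and 2 stood above the 7 others and MI rat 3 did not. Group MI had 16.0 times the reads of group Sham per depth (exact 95% interval 4.26 to 135) and 11.01 times those with DAPA (4.47 to 35.1), for counting error alone. With all recovered reads as depth these were 34.5 and 12.9 times. Krt19 did not pass the filter in any comparison.

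Of 10 other keratins, Krt5 and Krt15 of stratified epithelia were at 0 in all 9 rats and only Krt1 and Krt10 were tested in MI vs. Sham. Krt1 was lower, from 3.74, 3.77 and 4.96 FPKM in group Sham to 0.646, 0.306 and 0.998 in group MI (log2 fold change -1.66, SE 0.23, limma adjusted p = 0.00261), and lay between at 1.34, 2.72 and 1.43 with DAPA. Scaled to all recovered reads, Krt1 was not called. Krt10 did not differ beyond the spread (0.02, SE 0.25). The 9 markers of airway, lung and stratified epithelia summed to at most 2.86 FPKM in any rat, and none was tested.

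Of 14 further genes known from mesothelium, 13 were in the table and Muc16 was not analysed here. In MI vs. Sham 7 were tested, 4 of them higher and 0 lower, with a median log2 fold change of 1.23. Of all genes tested 12.1% were called higher. Slpi and Nkain4 passed the filter mainly through group MI, so they could hardly have been tested without being higher there. Slpi, a secreted protease inhibitor, was at 1.12, 0 and 0 FPKM in group Sham, 16.1, 42.6 and 9.26 in group MI and 12.8, 0.145 and 0.840 with DAPA (log2 fold change 3.94 in MI vs. Sham, SE 0.55, limma adjusted p = 0.00263). The Wnt agonist Rspo1 (1.52, adjusted p = 0.0183), Nkain4 (1.48, adjusted p = 0.0179) and Prg4, which encodes lubricin (1.23, adjusted p = 0.0567, chosen after its value was seen), were the other 3. Sema3d, a guidance signal of the epicardium, was at 0.93 and not called. Scaled to all recovered reads, 6 of 8 tested were higher.

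With DAPA 2 of 8 of these genes were called lower against MI, Slpi at -2.68 (SE 0.97) and Nkain4 at -1.31 (SE 0.26), both with a limma adjusted p of 0.558. Of all genes tested 1.11% were called lower, and both of these passed the filter mainly through group MI. Slpi was not called without MI rat 1 (-2.78) or MI rat 2 (-2.11), and Nkain4 was called without any 1 of the MI rats, lowest in size at -1.08 without MI rat 2. Nkain4 was at 3.52, 5.42 and 2.40 FPKM in the MI rats and 0.644, 1.10 and 0.862 with DAPA, without overlap, whereas Slpi in DAPA rat 1 lay inside the MI range. Lrrn4, chosen after its values were seen, was at 1.41, 2.09 and 0.0813 FPKM in the MI rats and at most 0.149 in every other rat, the pattern of Upk3b and Krt19. Prg4 and Rspo1 were not called with DAPA, and Prg4 was at 15.8, 14.1 and 12.4 FPKM there against 19.2, 6.46 and 11.6 in group MI. Bnc1 and Calb2, also defining for mesothelium, were at 0 in every rat except MI rat 2, where they were at 0.0599 and 0.0758 FPKM. The sum of the 13 was 14.9 to 24.5 FPKM in group Sham, 42.3 to 89.9 in group MI and 32.95 to 47.9 under DAPA. How much surface each piece of tissue held, and the part of this in these levels, was not tested.

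**Figure D3:**
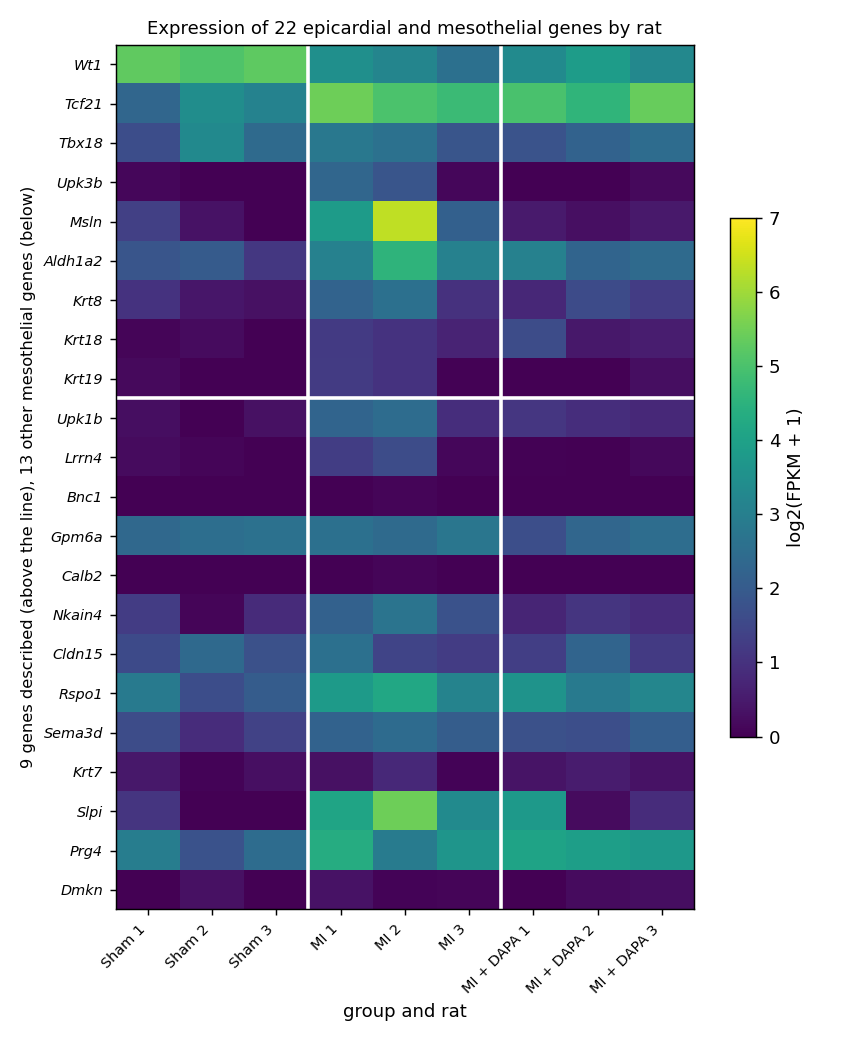
Log2(FPKM + 1) of the 9 genes described (rows above the white line) and of 13 further mesothelial genes (below), with rats in columns. Upk3b, Krt19, Upk1b and Lrrn4 are brightest in MI rats 1 and 2, Msln and Slpi reach 78.8 and 42.6 FPKM in MI rat 2, and Bnc1 and Calb2 are dark throughout.

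Epithelial-mesenchymal transition is the step by which epicardial cells leave the surface. Of 11 of its regulators and adhesion genes 9 were tested in MI vs. Sham, with 3 higher and 0 lower: the transcription factors Zeb2 (1.54, SE 0.23, limma adjusted p = 0.00302), Snai2 (1.22, SE 0.27, adjusted p = 0.0124) and Snai1 (1.02, SE 0.25, adjusted p = 0.0171). Snai1 lay so near the threshold that rescaling without the mitochondrial genome left 2 called, and scaling to all recovered reads gave 6 of 9 higher. Tjp1, a tight junction protein, was at -0.90 and not called. The epithelial genes Cdh1 and Epcam were under 1 FPKM in all 9 rats and were not tested. With DAPA against MI 0 of 9 were called, and 1 had an unadjusted limma p under 0.05, Cdh2, the cadherin of cardiomyocytes and mesenchyme, at 0.71 (limma adjusted p = 0.558).

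**Figure D4:**
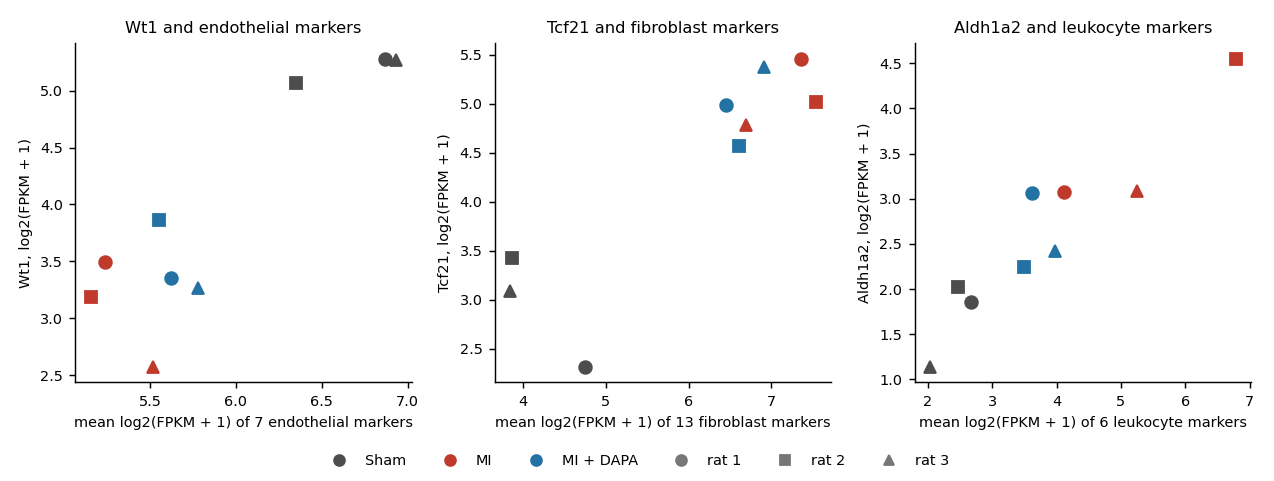
Log2(FPKM + 1) of Wt1, Tcf21 and Aldh1a2 in each rat (vertical) against the mean log2(FPKM + 1) of 7 endothelial, 13 fibroblast and 6 leukocyte markers (horizontal). Colours are groups and symbols rats. Sham rats sit apart on both axes of the first 2 panels, and MI rat 2 lies farthest right in the leukocyte panel.

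For each gene the tested genes with the nearest profile over the 9 rats were named, by the root mean square difference of log2(FPKM + 1) after each gene was centred. Groups and library scaling are shared by all rows, so nearness is a description. Nearest to Wt1 were Fam89a (0.23) and Tspan2 (0.25), against a spread of 0.96 of Wt1 itself about its mean. Tcf21 was nearest to the transcription factor Foxo3 (0.22) and the adenylyl cyclase Adcy7 (0.25), with a spread of its own of 1.05. Next to Aldh1a2 (spread 0.92) were Rac2 (0.18) and Vav1 (0.19), genes of blood cell signalling, both highest in MI rat 2 at 89.3 and 11.5 FPKM. Tbx18 (spread 0.51) lay nearest to Ckap2l of the mitotic spindle (0.20) and Tpsab1, a mast cell tryptase (0.21).

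Msln had no near profile, with the complement gene C3 at 0.99 and Wfdc21 at 0.90 the closest beside a spread of 2.00. Upk3b (spread 0.85) was nearest to Upk1b, another uroplakin (0.38), at 3.80, 4.56 and 0.873 FPKM in the MI rats and 0.746 to 1.15 with DAPA, and then to Mir1247 (0.44). For the keratins the nearest were Trnp1 and Htra1 to Krt8 (both 0.27), Errfi1 and Ptgir to Krt18 (both 0.18), and Plpp1 and Ago1 to Krt19 (both 0.20), where the keratins' own spreads were 0.73, 0.51 and 0.44.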

How the data were processed

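The data are RNA-seq of 9 rat left ventricles. FPKM values, 1 column per rat, were deposited by the authors, already divided by gene length and library size. The submitters' processing notes name HISAT2 2.0.5, StringTie 1.3.3b, featureCounts 1.5.0-p3 and DESeq2. The genome build is not given in the sources used here. Groups were taken from the sample labels, and 0 columns were left unused. Replicates were different rats.

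The 9 genes and all gene lists were chosen with earlier results of these data known. limma 3.58.1 (R 4.3.3) was run on log2(FPKM + 1) with 2 groups per fit, no covariate and a prior variance following mean expression, after a filter of FPKM of at least 1 in at least 3 rats. The study's thresholds, p below 0.05 and a log2 fold change beyond 1 either way, were kept, but a count test is not meant for FPKM. Whole reads were recovered from the FPKM steps for 18896 of 18896 genes seen in 4 or more libraries, to a tolerance of 0.01. Single genes were compared by exact permutation tests in Python 3.11.15, and scipy 1.17.1 gave their Benjamini-Hochberg adjustment and the exact intervals of the read ratios. The permutation test was checked on small fixed examples only, and limma and the recovery of reads on simulated data. No 2 libraries were alike beyond a correlation of 0.965.

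Genes named were all 9, up to 4 per list with the smallest limma p in MI vs. Sham, up to 2 per list in DAPA vs. MI, and the 2 nearest profiles per gene. Others are said to be chosen after their values were seen. A gene that the rule named is not reported here. Alternatives were a pseudocount of 0.1, no filter, all 9 rats in 1 fit, the replicate block, 3 other scalings, adjusted p-values, no fold threshold and leaving out single rats.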

Additional observations from a re-analysis of the deposited data

How the results depend on the processing

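Most calls of the 9 genes kept their direction and their side of the thresholds: 53 of 54 fits of single genes in MI vs. Sham, 59 of 62 in DAPA vs. MI and 39 of 44 in DAPA vs. Sham, over settings that kept every rat. Several of these settings leave the fold change as it was by design, so there only the call could change. They are no filter, all 9 rats in 1 fit, the replicate block, adjusted p-values and no fold threshold. The number of the 9 genes called in MI vs. Sham was 5, 6 without the filter on low values (Upk3b added), and 4 to 5 without single rats. In DAPA vs. MI it was 1, and 2 without the filter on low values (Upk3b added) and when rescaled without the mitochondrial genome or scaled to all recovered reads (Aldh1a2 added). It was 0 with adjusted p-values by limma, which called 0 of all genes (1125 had an unadjusted p under 0.05), and Msln, at -3.67, was then not called. Without single rats it ranged from 0 to 2, lowest without MI rat 2, where Msln failed the filter. In DAPA vs. Sham it was 2, 3 with a pseudocount of 0.1 or no fold threshold (Aldh1a2 added), and 2 to 3 without single rats.

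All genes called numbered 3024, 273 and 2364 in the 3 comparisons as listed above. Without a fold threshold they were 6605, 1125 and 5534, and scaled to all recovered reads 6389 in MI vs. Sham and 4666 in DAPA vs. Sham. Leaving out single rats gave 2545 to 3043, 111 to 561 and 2047 to 2478, with 111 in DAPA vs. MI without MI rat 2, 561 without MI rat 3, 499 without DAPA rat 3, 179 without DAPA rat 1 and 152 without DAPA rat 2.

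Signs turned only for small differences. Tbx18 was at 0.84 in MI vs. Sham and 0.38 in DAPA vs. Sham when scaled to all recovered reads, and at 0.39 and 0.12 without Sham rat 2. Over all fits without 1 rat it ranged from -0.44 to 0.39 in MI vs. Sham, where it was at 0.25 without MI rat 3, and from -0.71 to 0.12 in DAPA vs. Sham. In DAPA vs. MI, Tcf21 ranged from -0.31 to 0.10, above 0 without MI rat 1 (0.08) and DAPA rat 2, and Krt18 from -0.23 to 0.13 with the filter and down to -0.46 with no filter (without DAPA rat 1), above 0 without DAPA rats 2 and 3 (0.07) and, with no filter, without MI rat 1 (0.025). The cause of these changes was not tested.

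Adding a replicate block changed no call among the 9 genes (5, 1 and 2 called), and 3044, 217 and 2404 of all genes were then called. The deviations of rats with the same number correlated at -0.0162 on average over 9 pairs and those of rats with different numbers at 0.00809 over 18, so the numbers were not taken to pair the rats.

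Genes near 0 were limited by depth: Upk3b, Krt18 and Krt19 rest on 1 to 3 reads in group Sham in all. Group Sham had the fewest reads outside the mitochondrial genome, so low genes were least well measured there.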
